A study of Zea mays with 6 samples.

Results

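Protein disulfide isomerase (pdi) and derlin (der) genes of maize were followed in seedlings that carry an extra copy of part of chromosome 5, which holds pdi4 and der2. A gene was taken as a member where the single gene symbol or synonym of its probe set was pdi or der followed by a number. This gave 12 of the 1108 named genes on the array, 9 pdi genes (pdi3 to pdi8 and pdi10 to pdi12) and 3 der genes (der2, der4 and DER1.1). They were read by 19 probe sets, that is, by 19 groups of short array probes that each give 1 value per array. Whether each group reads only its named gene was not tested. Of the 12 genes, pdi4 and der2 have 3 copies in DpDf plants and the other 10, placed elsewhere in the genome, were taken to have 2.

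RNA came from 14-day seedlings of the B73 inbred background, from families segregating for the translocation T5-6b. In DpDf (duplicate-deficient) plants most of the chromosome 5 short arm is present in 3 copies and a small end region of chromosome 6 in 1 copy, so both changes are present in every DpDf pool. Wild type means siblings of the same families with 2 copies of both regions. Each group had 3 pools, each of 8 plants genotyped with a marker near the breakpoint and each hybridised to its own Affymetrix maize array, and the tissue was about 1 cm of shoot tip enriched in apical meristem with leaf primordia. The number of arrays limits the precision throughout. In such pooled tissue, fewer cells of a type and less RNA per cell cannot be told apart.

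Proteins that enter the secretory pathway fold in the endoplasmic reticulum (ER). Protein disulfide isomerases are ER enzymes with thioredoxin-like domains that form and rearrange the disulfide bonds of such proteins. Derlins are membrane proteins of the ER, named after Der1 of yeast, that take part in passing misfolded proteins out to the cytosol, where the proteasome degrades them. In maize both families are known mainly from the endosperm, where zein storage proteins pass through the ER in bulk.

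The arrays differed among themselves in ways that touch every member. Wild type replicate 3 stood apart: its highest Spearman correlation with another array was 0.932, and its median intensity was 415.9 against 490.9 to 506.1 on the other 5. Values are therefore given over all 6 arrays and over the 5 arrays without it. RNA quality was read from 5 maize control transcripts as the 3' signal over the 5' signal, in log2. In DpDf the ratio was 2.20, 1.21 and 1.14, here and below in the order of replicates 1 to 3, while wild type had 0.82, 0.91 and 0.77. It thus moved with genotype, and its part in the values below was not tested. The meristem gene KN-1, 1 of 3 shoot meristem genes on the array, lay above the 40th percentile of every array. So did 6 of 9 leaf primordium genes, 6 of 6 genes of photosynthetic leaf cells, 1 of 12 endosperm and seed genes (lip15) and 1 of 4 genes listed for root (TIP2-1). The root list held only TIP1-2, TIP2-1, TIP2-2 and por2, and lip15 was the brightest of the endosperm and seed list on every array. The summed intensity of the endosperm and seed list was 3612 to 3949 in DpDf and 3826 to 4012 in wild type, and 6 of its genes reached the 40th percentile on no array. That sum hides shifts on wild type replicate 3, where lip15, bt2 and gz27 read lowest of the 6 arrays. GLB1 lay between, and the other genes of the list read highest there, among them z1C1_12 (8.51 in log2), o2 (8.44) and sh2 (7.82). The summed intensity of the photosynthetic list was 52595 to 53544 in DpDf and 45812 to 50915 in wild type. That sum thus moved with genotype too, and its part in the values below was not tested. Of that list only Cab-m7 and C4ppdkZm1 read higher in every DpDf pool than in every wild-type pool. For rbcS, PDK1, ME1 and pep1 the groups overlapped.

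Of the 4 probe sets of the ER genes with 3 copies, 3 read higher in every DpDf pool than in every wild-type pool and 1, a dim probe set of pdi4, did not. The same order held in 2 of the 15 probe sets of their 2-copy relatives and in 23.2% of all probe sets that passed the filter on dim probe sets. The dim pdi4 probe set did not pass that filter, and 1 other of pdi4 passed it only through its DpDf arrays. On the 5 arrays without wild type replicate 3, pdi4 rose by 0.52 on the log2 scale in its probe set that was above background in both groups. der2 had a log2 difference of 0.41, just short of the threshold of 0.05 on p-values adjusted over all probe sets. None of the 15 probe sets of 2-copy genes passed limma's test on these arrays, where 3.07% of all probe sets tested passed as higher and 0.263% as lower. A probe set of the 2-copy gene pdi3 came nearly as close as der2, at 0.34 (limma adjusted p = 0.0589 against 0.0518). Over all 6 arrays no member passed, and 0.0281% of all probe sets tested did.

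pdi4 (LOC606412, also named PDIL1-4) lies on the short arm of chromosome 5, at 30.1% of the chromosome's length as placed in Zm-B73-REFERENCE-NAM-5.0. That assembly was used only for names, chromosomes and gene order, because the array names no genome build. The pdi4 probe set ending in S1_x_at read intensities of 600.1, 656.6 and 575.8 in DpDf, whereas wild type had 429.6, 420.1 and 169.3. The groups did not overlap, and wild type replicate 3 lay far below the other wild-type pools. Its value, 7.41 in log2, lay under the 40th percentile of that array (8.28), taken below as the level of background. The difference of this probe set over 6 arrays thus rests in part on a reading at background. The difference of DpDf minus wild type in log2(intensity + 1) was 0.96 ± 0.35 (SE) over 6 arrays (limma adjusted p = 0.458) and 0.52 ± 0.08 over 5 (limma adjusted p = 0.0240). The 95% interval over 5 arrays ran from 0.33 to 0.72.

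Another pdi4 probe set, ending in S1_at, read 550.0, 515.3 and 457.9 in DpDf and 305.1, 304.1 and 99.79 in wild type. Again every DpDf pool lay above every wild-type pool, and all 3 wild-type values lay under the 40th percentile of their array, taken here as the level of background. The difference is therefore given as a bound, at least 1.61-fold higher in DpDf over 6 arrays (limma adjusted p = 0.425) and at least 1.6-fold higher over 5 (limma adjusted p = 0.0158). This probe set passed the filter on dim probe sets only through its 3 DpDf arrays, so its being tested depended on its being high there. With no filter its limma adjusted p over 5 arrays was 0.0213. The remaining pdi4 probe set, ending in A1_at, lay under the 40th percentile on all 6 arrays, at 113.1, 137.0 and 133.2 in DpDf and 130.5, 139.1 and 167.9 in wild type, and was not tested. Its groups overlapped, and DpDf was not the higher. By their names the S1_x_at and S1_at probe sets were designed on the same sequence, and they are not independent readings of the gene.

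The call of pdi4 rested on few arrays. From the 5 arrays, leaving out DpDf replicate 2, wild type replicate 1 or wild type replicate 2 took both probe sets above 0.05, to limma adjusted p-values of 0.0734 to 0.246, while the log2 difference of the S1_x_at probe set stayed between 0.47 and 0.54. Pools of one replicate number came from the same planting. With that number as a block and both replicates 3 left out, the S1_x_at probe set had a log2 difference of 0.56 (limma adjusted p = 0.106). The S1_at probe set was not called either (limma adjusted p = 0.0851), and 0.0375% of all probe sets tested were called.

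der2 (LOC606471, also named DER2.1), a derlin gene, lies near the tip of the same arm, at 0.545% of the chromosome's length. Its probe set read 1535, 1694 and 1750 in DpDf and 1265, 1232 and 760.6 in wild type. The groups did not overlap, and wild type replicate 3 was again the lowest. The log2 difference was 0.65 ± 0.22 (SE) over 6 arrays (limma adjusted p = 0.425) and 0.41 ± 0.08 over 5 (limma adjusted p = 0.0518), with a 95% interval over 5 arrays of 0.21 to 0.60. Of the settings tried, 2 moved it across the threshold in the 5 arrays, a stricter filter on dim probe sets (limma adjusted p = 0.0475) and leaving out DpDf replicate 1 (0.46, limma adjusted p = 0.0128). With the replicate number as a block and both replicates 3 left out, der2 was further from it, at 0.37 (limma adjusted p = 0.214).

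**Figure D1:**
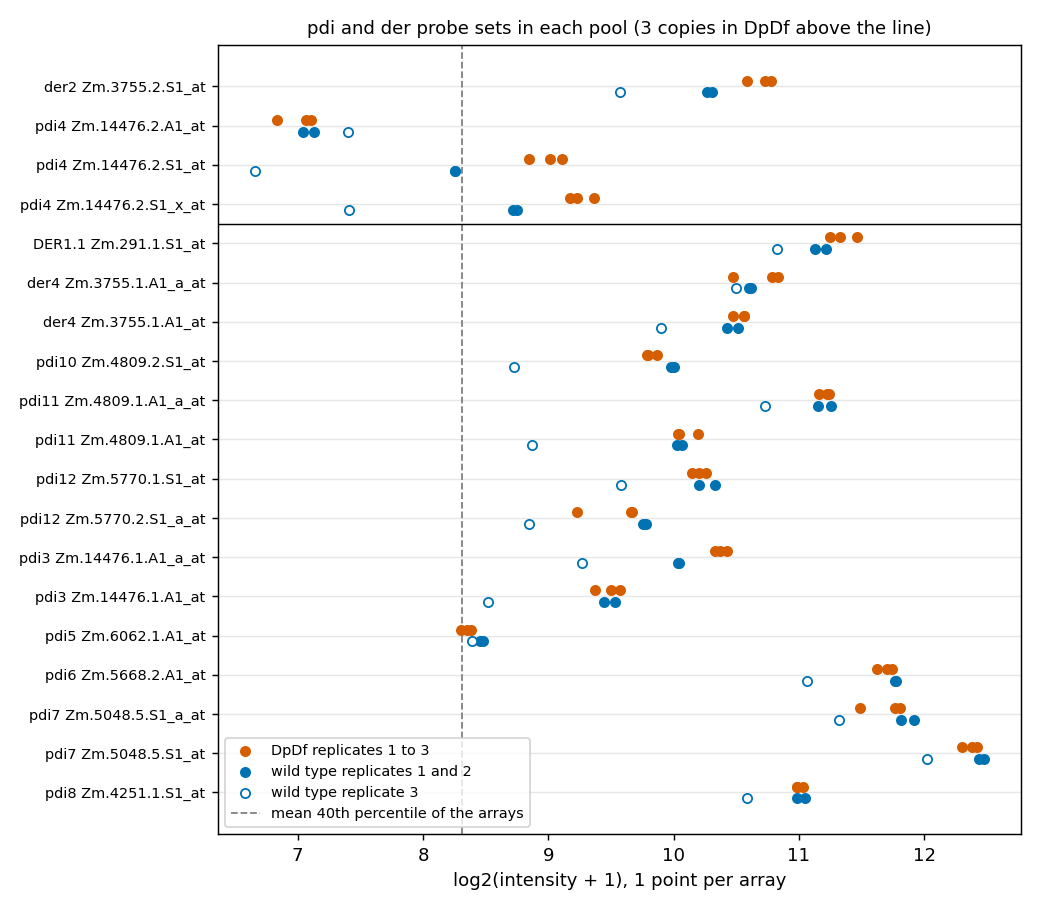
Log2(intensity + 1) of the probe sets of pdi4 and der2 and of 2-copy pdi and der genes on each array, with DpDf and wild-type pools as separate points and wild type replicate 3 marked. In pdi4 and der2 all DpDf points lie above all wild-type points, except for the pdi4 probe set under the 40th percentile, and wild type replicate 3 is the lowest point in 13 of the 15 probe sets of 2-copy genes.

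Among the 2-copy pdi genes, pdi3 (LOC606411, also named PDIL1-3, chromosome 4) came closest to pdi4. Its probe set ending in A1_a_at read 1323, 1378 and 1287 in DpDf and 1057, 1048 and 614.7 in wild type, so its groups did not overlap either. The log2 difference was 0.59 over 6 arrays (limma adjusted p = 0.473) and 0.34 ± 0.07 over 5 (limma adjusted p = 0.0589), and without DpDf replicate 1 as well it passed, at 0.34 (limma adjusted p = 0.0371). Another pdi3 probe set, ending in A1_at, read 760.1, 725.3 and 662.3 in DpDf and 696.9, 738.4 and 365.6 in wild type, with overlapping groups and a log2 difference of -0.01 over 5 arrays. The 2 probe sets of pdi3 thus did not read alike. pdi3 and pdi4 share 1 cluster number in the array's design, and whether probes of one read the transcript of the other was not tested.

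The remaining members of the PDIL1 and PDIL2 groups showed no call. pdi5 (PDIL1-5, chromosome 9) read 314.9, 326.2 and 332.1 in DpDf and 349.5, 354.8 and 335.6 in wild type. Every DpDf pool thus lay below every wild-type pool, by a narrow margin, and the share of all probe sets with this order was not computed. These values lay close to the 40th percentile, and DpDf replicate 1 (8.30 in log2) lay under that of its array (8.32). pdi5 was the only 2-copy probe set with a negative difference over all 6 arrays, -0.10, and was at -0.12 over 5 arrays. pdi6 (PDIL2-1, chromosome 3) read 3332, 3435 and 3157 in DpDf and 3491, 3499 and 2136 in wild type. Its log2 difference was 0.16 over 6 arrays and -0.08 over 5. Here the sign turned with the single wild-type pool that stood apart. pdi7 (PDIL2-2, chromosome 6) was counted with 2 copies, although no limit was set for the small end region of that chromosome present in 1 copy. pdi7 read 5044, 5476 and 5328 in DpDf and 5703, 5539 and 4154 in wild type in its probe set ending in S1_at, a log2 difference of -0.09 over 5 arrays. Its probe set ending in S1_a_at read 2872, 3574 and 3485 in DpDf and 3596, 3875 and 2555 in wild type, a log2 difference of -0.18 over 5 arrays, and DpDf and wild type overlapped in both. pdi8 (PDIL2-3, chromosome 7) read 2097, 2026 and 2026 in DpDf and 2114, 2026 and 1533 in wild type, a log2 difference of -0.01 over 5 arrays. Apart from wild type replicate 3 the pools of pdi8 read nearly alike.

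In the PDIL5 group no probe set was called either. pdi10 (PDIL5-2, chromosome 2) read 888.2, 931.5 and 884.8 in DpDf and 1008, 1027 and 422.3 in wild type. Its log2 difference was 0.25 over 6 arrays and -0.17 over 5, where its 95% interval, -0.34 to -0.01, lay just below 0 although the adjusted p of limma was 0.227. pdi11 (PDIL5-3, chromosome 10) read 2416, 2397 and 2284 in DpDf and 2273, 2447 and 1700 in wild type in the probe set ending in A1_a_at, and 1168, 1057 and 1047 against 1042, 1074 and 466.1 in that ending in A1_at. Both had overlapping groups. pdi12 (PDIL5-4, chromosome 2) read 1132, 1226 and 1179 in DpDf and 1289, 1175 and 766.5 in wild type in its probe set ending in S1_at. Its log2 difference was -0.06 over 5 arrays, and that of the pdi12 probe set ending in S1_a_at was -0.25 (limma adjusted p = 0.354).

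The 2-copy derlin genes had smaller differences than der2, and none was called. DER1.1 (chromosome 8) read 2430, 2574 and 2825 in DpDf and 2243, 2379 and 1818 in wild type. Its groups did not overlap, by a narrow margin between DpDf replicate 1 and wild type replicate 2, and the log2 difference was 0.29 over 6 arrays and 0.17 ± 0.09 (SE) over 5 (limma adjusted p = 0.312). der4 (LOC606472, also named DER2.2, chromosome 1) read 1423, 1761 and 1820 in DpDf and 1568, 1549 and 1444 in wild type in its probe set ending in A1_a_at, with overlapping groups and a log2 difference of 0.09 over 5 arrays (limma adjusted p = 0.683). The der4 probe set ending in A1_at gave 0.07 (limma adjusted p = 0.640). der4 and der2 also share a cluster number, and cross-reading between them was not tested.

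Counted together, 18 of the 19 member probe sets passed the filter on dim probe sets, 3 of the 4 of dosed genes and 15 of the 15 of 2-copy genes. Over 6 arrays 0 of the 18 were called by limma, while 3 of all probe sets were, and 1041 of 10661 had an unadjusted p under 0.05. Over 5 arrays the S1_x_at and S1_at probe sets of pdi4 were called higher and 0 of the 15 of 2-copy genes in either direction. Because the S1_at probe set entered through DpDf alone and reads the same sequence as the other, these are not 2 separate counts for the gene. The 2-copy probe sets in which every DpDf array lay above every wild-type array were those of pdi3 and DER1.1. The median log2 difference of the 2-copy probe sets was 0.16 over 6 arrays and -0.01 over 5, close to 0.18 and 0.02 over all 10661 probe sets.

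The 15 probe sets of 2-copy genes spread around 0 on the 5 arrays, with 6 above 0 and 9 below. They ranged from -0.25 to 0.34. With all 6 arrays 14 of them were above 0, of which 8 turned below 0 with median centring and the same 8 with quantile normalization, and they ranged from -0.10 to 0.59. The 95% intervals over 5 arrays included 0 in 13 of the 15, and in 0 of the 15 did they include 0.58, the log2 of 3 over 2 copies. With all 6 arrays 9 of the 15 intervals did include it, so that the larger array set cannot separate these genes from a change in proportion to copy number.

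**Figure D2:**
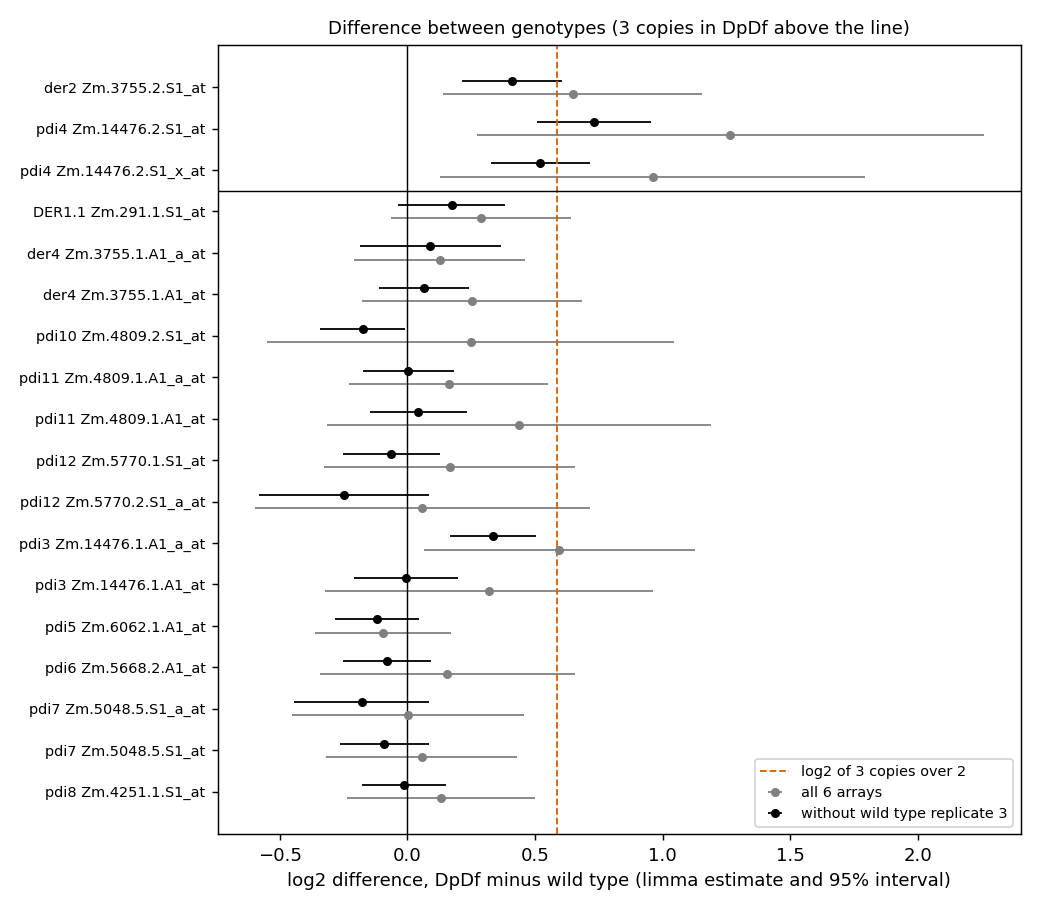
Log2 difference of DpDf minus wild type for each pdi and der probe set tested, with 95% intervals from limma, over 6 arrays and over 5 arrays without wild type replicate 3. The S1_at probe set of pdi4 is drawn at its fitted value although wild type was not above background. Over 5 arrays the intervals of the S1_x_at probe set of pdi4 and of der2 lie above 0, and those of 13 of the 15 probe sets of 2-copy genes include 0.

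To remove a shift common to a whole array, each dosed gene was set against its 2-copy relatives within the array, each gene being represented by its brightest probe set over the arrays. pdi4 minus the mean of 8 2-copy pdi genes, centred on its mean over the arrays, was 0.38, 0.46 and 0.33 on the log2 scale in DpDf and -0.14, -0.16 and -0.87 in wild type. The group means were 0.39 ± 0.07 and -0.39 ± 0.41 (SD, n = 3 each), and their difference of 0.78 is a 1.72-fold ratio. Without wild type replicate 3 the difference was 0.55, or 1.46-fold. Wild type replicate 3 therefore stayed apart in pdi4 even relative to the other pdi genes of the same array, where the pdi4 value itself was at background.

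For der2 minus the mean of der4 and DER1.1, the centred values were 0.27, 0.22 and 0.17 in DpDf and -0.02, -0.09 and -0.54 in wild type. The means were 0.22 ± 0.05 and -0.22 ± 0.28 (SD, n = 3 each), a difference of 0.44 or 1.36-fold. It was 0.28, or 1.21-fold, without wild type replicate 3. In both settings the DpDf pools lay above the wild-type pools for pdi4 and for der2. The share of other genes whose ratio to their relatives shows this order was not computed in either setting. Among single probe sets that passed the filter, 23.2% had every DpDf array above every wild-type array when no array was left out.

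Each dosed gene was also compared with each single 2-copy relative, which made 10 pairs. In all 10 the ratio was higher in every DpDf pool than in every wild-type pool, with and without wild type replicate 3. The 8 pairs of pdi4 share its values and the 2 pairs of der2 share those of der2, so the 10 are not independent readings. How often pairs of other genes show this order was not computed. A two-sided exact permutation test over arrays gave p = 0.1 for each pair, also after Benjamini-Hochberg adjustment over the 10 pairs, which is the smallest that 3 against 3 arrays can give. With 5 arrays it gave 0.2, again the smallest possible, so this design cannot reach 0.05. The difference between groups in the log2 ratio of pdi4 was smallest against pdi3 (0.37 over 6 arrays and 0.18 over 5). It was largest of the 8 against pdi5 over 6 arrays (1.06, and 0.64 over 5) and against pdi10 over 5 (0.70). On wild type replicate 3 pdi4 was at background (7.41 in log2) and pdi5 close to it (8.39). The value of 1.06 thus rests in part on readings near background. For der2 the differences were 0.36 against DER1.1 and 0.52 against der4, and 0.24 and 0.32 over 5 arrays.

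**Figure D3:**
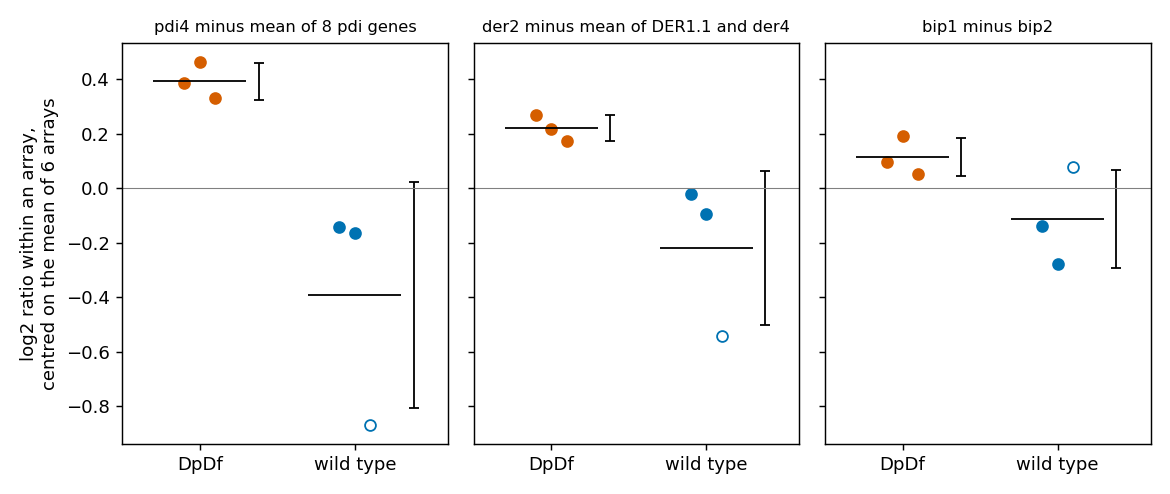
Log2 value of pdi4 minus the mean of its 8 2-copy relatives, of der2 minus the mean of its 2, and of bip1 minus bip2, per array and centred on the mean of the 6 arrays, with group means. DpDf pools lie above wild-type pools for pdi4 and der2, whereas for bip1 wild type replicate 3 lies among the DpDf pools. The share of other genes with the order seen for pdi4 and der2 was not computed for such ratios.

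The dosed members were next placed among their neighbours, since all genes of the duplicated arm share the extra copy. The arm was taken as the first 40% of chromosome 5 by length, an assumed boundary, and 46 named genes on it were measured besides 744 elsewhere. Over 6 arrays, where the wild type replicate 3 value of pdi4 was at background, pdi4 had the highest log2 difference of the 46 and der2 ranked 11. Over 5 arrays they ranked 12 and 23, with 18 of the 46 called. The middle 50% of arm genes lay between 0.28 and 0.52 over 5 arrays, so der2 (0.41) lay inside that range and pdi4 (rank 12) just above it. pdi4 lay just outside a boundary at 30%. That boundary left 39 arm genes with a median of 0.39, against 0.40 at 40%, and 1 at 45% gave 50 genes and 0.38.

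Relative to the median of genes elsewhere over 5 arrays, the S1_x_at probe set of pdi4 was 1.44-fold higher, at 0.52 (95% interval 0.33 to 0.72). der2 was 1.33-fold higher, at 0.41 (0.21 to 0.61). Both intervals include 0.58, the log2 of 3 over 2, and 0.40, by which the arm median lay above that of genes elsewhere. Whether the S1_x_at probe set reads pdi4 alone was not tested. The named genes next to pdi4 on the arm had log2 differences of 0.33 (cat1, a catalase gene), 0.58 (psiP) and 0.55 (PLC) towards the tip and 0.54 (ivr2, an invertase gene), 0.24 (TCTP) and 0.21 (bip1) on the other side. Of these psiP, PLC and ivr2 passed the test of limma, with adjusted p-values of 0.0193, 0.0188 and 0.0155. Next to der2 they were 0.70 (sig6, a plastid sigma factor), 0.48 (Snf-4 like) and 0.24 (LOC542205) towards the tip and 0.39 (LOC542518), 0.38 (arf1) and 0.32 (psad1) on the other side. Here sig6 (limma adjusted p = 0.0151) and arf1 (limma adjusted p = 0.0450) passed.

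**Figure D4:**
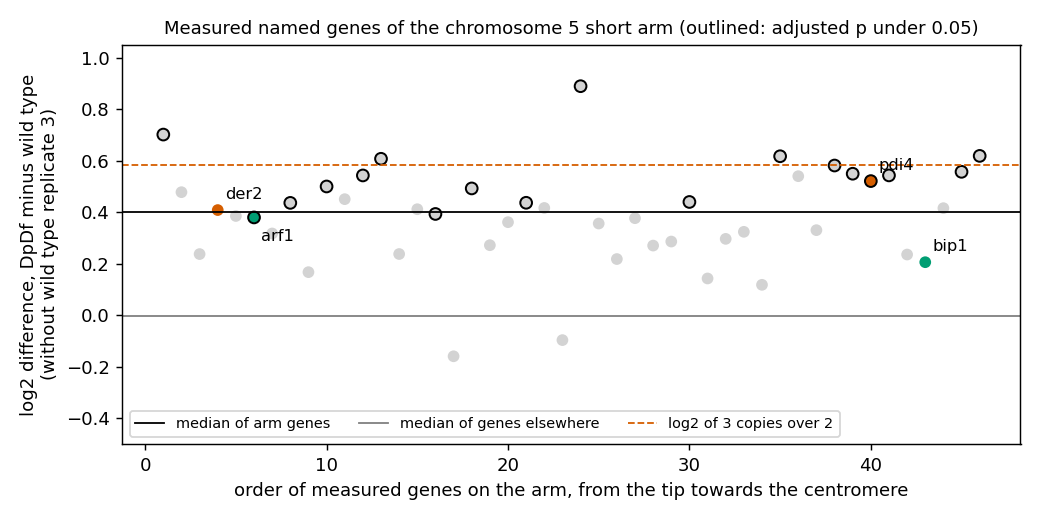
Log2 difference over 5 arrays of the 46 named genes of the chromosome 5 short arm in their order from the tip, with pdi4, der2, bip1 and arf1 marked. pdi4 is the 40th gene in this order and der2 the 4th, and both lie within the range of the other arm genes.

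The bip genes gave a second pair of relatives split by the duplication. BiP is the Hsp70 chaperone of the ER lumen, and this pair was added after positions and values were seen. bip1, the third named gene measured on the array beyond pdi4, with 89 annotated genes between them, read 7255, 7207 and 7382 in DpDf and 6624, 6014 and 4706 in wild type. bip2, on chromosome 4, read 4303, 4006 and 4511 in DpDf and 4620, 4619 and 2827 in wild type. The groups did not overlap for bip1, and did for bip2. The log2 difference of bip1 was 0.35 over 6 arrays (limma adjusted p = 0.534) and 0.21 ± 0.08 (SE) over 5 (limma adjusted p = 0.198), against 0.12 and -0.11 for bip2. Relative to genes elsewhere, bip1 lay at 0.21 (95% interval 0.03 to 0.39) over 5 arrays, an interval that does not reach 0.58. Within arrays, bip1 minus bip2 was 0.10, 0.19 and 0.05 in DpDf and -0.14, -0.28 and 0.08 in wild type when centred, so the groups overlapped through wild type replicate 3. The difference was 0.23 over 6 arrays and 0.32 over 5, the reverse of the order seen for pdi4 and der2, whose ratios were larger over 6 arrays.

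Other genes of ER folding and export were read from 5 lists of symbols, of which 13 genes with 25 probe sets were on the array and 20 probe sets passed the filter. Over 6 arrays 0 of the 20 were called, and over 5 arrays 1 was, arf1, higher in DpDf. Their median log2 difference was 0.13 over 6 arrays and 0.0046 over 5. The 18 probe sets of genes off the duplicated arm had medians of 0.11 and -0.03, and 0 were called. arf1, which is listed under that symbol with no description, lies near der2 on the arm and read 8457, 7955 and 7984 in DpDf and 6072, 6428 and 5335 in wild type. Its log2 difference was 0.46 over 6 arrays (limma adjusted p = 0.356) and 0.38 ± 0.07 (SE) over 5 (limma adjusted p = 0.0450). Its adjusted p over 5 arrays went to 0.0514 with quantile normalization and 0.0687 with median centring.

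In the list of luminal chaperones and lectins, 0 of 8 probe sets of 4 genes were called, and the median log2 difference was -0.05 over 6 arrays and -0.14 over 5. crt2, a gene of the calcium-binding lectin calreticulin, had -0.30 (limma adjusted p = 0.142) and -0.16 (limma adjusted p = 0.273) over 5 arrays. The gene listed as CNX had 4 probe sets, at -0.47 (limma adjusted p = 0.0615) and between -0.16 and -0.03 in the other 3. The probe set at -0.47 read 205.7, 247.0 and 247.9 in DpDf and 317.2, 328.3 and 318.6 in wild type. All its DpDf values lay under the 40th percentile of their array, and its wild-type values just above. It passed the filter on dim probe sets only through wild type, so -0.47 is a fitted value against background.

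In the oxidative folding list, PDIL1-1, a protein disulfide isomerase gene on chromosome 4 listed as pdi with no number and so not a member, read 1870, 3051 and 2843 in DpDf and 4758, 3817 and 2820 in wild type. The groups overlapped through wild type replicate 3, and DpDf replicate 1 was the lowest of all 6. Its log2 difference was -0.55 over 6 arrays (limma adjusted p = 0.546) and -0.75 ± 0.21 (SE) over 5 (limma adjusted p = 0.125). It was called when DpDf replicate 1 was left out of the 5 arrays, at -0.53 (limma adjusted p = 0.0393). PDIL5-1 (chromosome 1) had 0.22 over 5 arrays (limma adjusted p = 0.362). The 4 probe sets tested of ubc7, which encodes a ubiquitin-conjugating enzyme, ranged from -0.05 to 0.32, and the thioredoxin genes trh2 and trm1 had 0.04 and 0.17. The genes yptm2 and yptm3, of small GTPases of vesicle traffic, had -0.03 to 0.16, and SRP9, of the signal recognition particle, did not pass the filter.

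**Figure D5:**
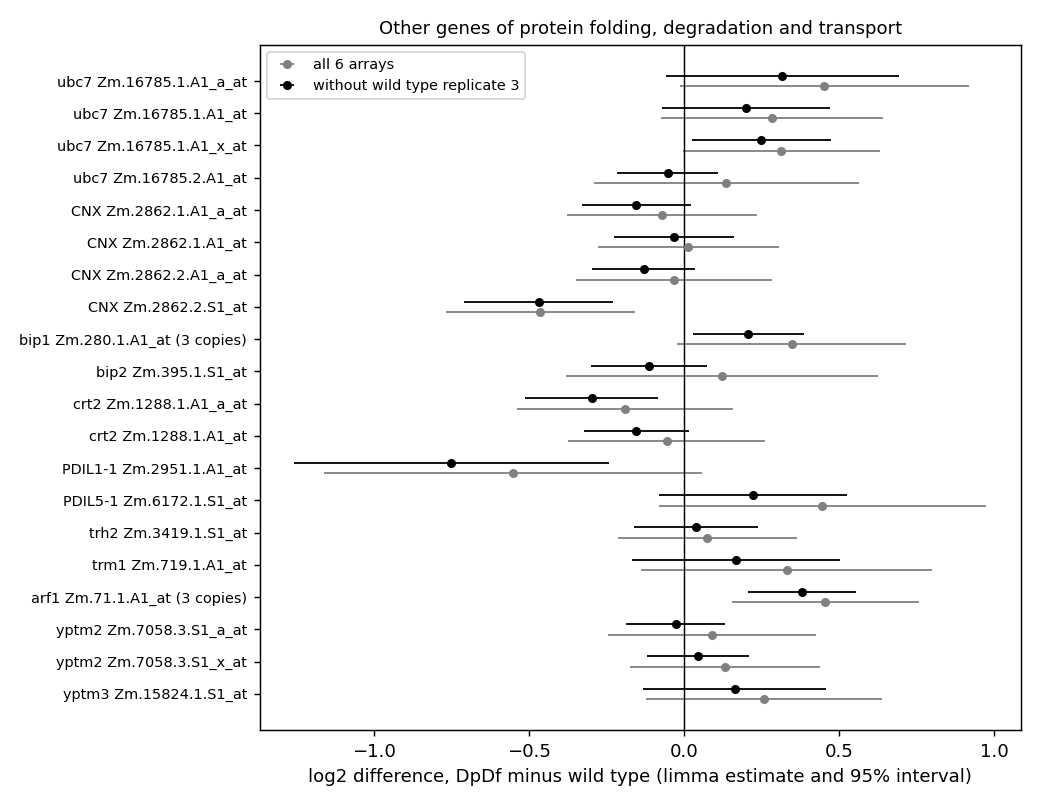
Log2 difference of DpDf minus wild type with 95% intervals from limma, over 6 arrays and over 5 arrays without wild type replicate 3, for 20 probe sets of other ER folding, degradation and transport genes. The 2 genes with 3 copies, bip1 and arf1, are marked in their labels, and the points of the other 18 probe sets lie on both sides of 0. The lowest CNX probe set is drawn at its fitted value although DpDf was not above background.

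The named genes most like pdi4 and der2 across the 6 arrays were found by the root mean square difference of centred log2 values. For pdi4 they were LOC542079 (0.070), m26 (0.13), fea2 (0.18) and sig1 (0.21). LOC542079 lies on the duplicated arm, m26 elsewhere on chromosome 5, fea2 on chromosome 4 and sig1 on chromosome 10. For der2 they were sqs1 (0.042), LOC100125656 (0.058), mbd109 (0.068) and ohp2 (0.077), of which LOC100125656 lies on chromosome 10 and the other three on the arm. In all 8 the lowest value was that of wild type replicate 3, so this likeness rests in part on 1 pool.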

How the data were processed

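Per the labels, total RNA extracted with Trizol was labelled by one-cycle cDNA synthesis, and each pool was put on its own array. The values the authors deposited are intensities on a linear scale, as their range and skew show, for 17621 probe sets besides 113 controls. GCOS 1.2 and GCRMA are named in the submitters' processing notes without a role. Values were analysed as log2(intensity + 1) without controls, keeping the 10661 probe sets (60.5%) that reached the 40th percentile of the array on 3 or more of the 6 arrays. limma 3.58.1 (R 4.3.3; lmFit, eBayes, 2 groups, no block) was fitted to all of these, p-values were adjusted by Benjamini-Hochberg over the whole table, and 0.05 was the threshold. The fit was tested on simulated data. Ratios within arrays were tested by exact permutation (two-sided, SciPy 1.17.1).

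Gene names are those of the platform table, brought up to date by gene identifier, of which 1060 of 1108 matched. Of the probe sets 1452 had a single symbol, 1 had several and 16168 had none. For the pdi4 probe set at background in wild type, the bound is the DpDf mean minus the mean 40th percentile of the wild-type arrays. Every member probe set was named, and from each ER list up to 4 of smallest p over 5 arrays and up to 2 of highest mean. The members and lists were chosen with earlier results of these data known. The labels give paired plantings to pools of the same number, so the numbers pair the pools, and the deviations of each pair from the group means correlated at 0.076, -0.16 and 0.20. Alternatives changed the pseudocount, filter, normalization, replicates, block, array weights and variance trend.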

Additional observations from a re-analysis of the deposited data

How the results depend on the processing

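The S1_at and S1_x_at probe sets of pdi4 and that of der2 kept a positive difference in every setting that tested them, and what changed was the side of the threshold and the signs of probe sets called in none of the settings below that turned them. For the S1_at probe set of pdi4, always given before S1_x_at, the values are fitted ones against a wild type at background. Over 6 arrays, array weights (fitted gene by gene, as the default fit did not converge) raised the calls from 3 to 1224, with pdi4 at 0.72 and 0.56, der2 at 0.45 and the A1_a_at probe set of pdi3 at 0.35, all called, and 1 call in each of the chaperone, oxidative folding and translocation lists. Those weights were lowest for wild type replicate 3 (0.042). Leaving out single arrays of the 6 gave 2 to 355 calls, log2 differences of 0.73 to 1.53 and 0.52 to 1.19 for the probe sets of pdi4, and 0 to 1 calls in the translocation list, the upper count and the lower differences coming without wild type replicate 3. From the 5 arrays, leaving out 1 more gave 3 to 753 calls, 0.67 to 0.80 and 0.47 to 0.56 for pdi4, 0.37 to 0.46 for der2, and 0 to 1 calls in each of the chaperone, oxidative folding and translocation lists. Without wild type replicate 1 or 2 as well, the lone wild-type pool is assumed to vary like the DpDf pools. With the replicate number as a block and both replicates 3 left out, calls went from 355 to 4, pdi4 to 0.80 and 0.56, no longer called, and the translocation list to 0. The block over all 6 arrays changed no call of these genes. With the stricter filter der2 (0.41) was called over 5 arrays, and the S1_at probe set of pdi4 was not tested. Its A1_at probe set, lower in DpDf on average, was tested in no setting reported here. Quantile normalization and median centring left 0 calls in the translocation list over 5 arrays.

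Signs of uncalled 2-copy genes turned as follows. Over 6 arrays, quantile normalization gave -0.077 for der4, -0.025 for pdi11, -0.012 and -0.071 for pdi12, -0.0036 for pdi6, -0.17 and -0.082 for pdi7, -0.069 for pdi8 and -0.037 for bip2, and over 5 arrays -0.025 for pdi11. Median centring gave, in the same order, -0.063, -0.028, -0.024 and -0.13, -0.033, -0.19 and -0.13, -0.059 and -0.067, and over 5 arrays -0.035 for pdi11. Array weights gave -0.16 for pdi10, -0.016 for pdi11, -0.0091 and -0.15 for pdi12, -0.032 for pdi3, -0.069 for pdi6, -0.13 and -0.054 for pdi7, -0.011 for pdi8 and -0.13 for bip2. The replicate block without both replicates 3 gave -0.16 for pdi10, -0.063 and -0.32 for pdi12, -0.047 for pdi6, -0.22 and -0.097 for pdi7, -0.0058 for pdi8, -0.15 for bip2 and, against the 5 arrays, 0.050 for pdi3. Leaving out single arrays of the 6 gave -0.17 to 0.47 for pdi10, -0.063 to 0.31 and -0.25 to 0.22 for pdi12, -0.0052 to 0.50 for pdi3, -0.080 to 0.28 for pdi6, -0.18 to 0.12 and -0.090 to 0.14 for pdi7, -0.014 to 0.22 for pdi8 and -0.11 to 0.24 for bip2. From the 5 arrays it gave -0.049 to 0.057 and -0.0080 to 0.071 for pdi11, -0.13 to 0.0041 for pdi12, -0.050 to 0.050 for pdi3 and -0.045 to 0.017 for pdi8. The causes of these changes were not tested.

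Of 776 values recomputed, 667 kept their direction and side of the threshold. All paralogs had passed the filter, so including dim ones changed nothing, and no gene descriptions were used, so matching by description was not run. The alternatives on the 5 arrays were chosen after seeing the data. The number of arrays limits the precision.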

Other observations

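The transcript clusters of pdi7 and pdi6 on the array held 12 further probe sets with no gene name in the tables used here. Of the 11 in the cluster of pdi7 8 passed the filter, and they had log2 differences between -0.70 and 0.22 over 5 arrays, with none called by limma. The single further probe set in the cluster of pdi6 read 5553, 5828 and 5586 in DpDf and 4501, 4168 and 2991 in wild type. Its log2 difference was 0.56 over 6 arrays (limma adjusted p = 0.4) and 0.38 over 5 (limma adjusted p = 0.0444), against 0.16 and -0.08 for the named pdi6 probe set. It was singled out after its values were seen, its gene and chromosome are not known here, and it lost its call with the replicate block and both replicates 3 left out (limma adjusted p = 0.193).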
